A study of Mus musculus with 107 samples.

Results

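The genes described here are 10 genes of antigen presentation in skin: 5 that encode or serve MHC class II proteins (H2-Aa, H2-Ab1, H2-Eb1, Cd74 and H2-DMa), the class II regulator Ciita, and 4 genes that mark Langerhans cells or other dendritic cells (Cd207, Epcam, Itgax and Cd86). They were chosen by name: every probe set, on either of a pair of Affymetrix mouse arrays, whose gene symbol is one of these was taken, in all treatment groups. This gave 20 probe sets for the 10 genes, of 18194 genes with a probe set of a single symbol. On array A, 12 of 15 probe sets, covering 9 genes, passed the filter on low signals. On array B, 4 of 5 passed, covering H2-Aa, H2-DMa and Epcam. Ciita passed on neither array.

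MHC class II molecules are pairs of an alpha and a beta chain that carry peptides from engulfed material to the surface of antigen presenting cells, where CD4 T cells read them. In the mouse, H2-Aa and H2-Ab1 encode the chains of the I-A molecule, and H2-Eb1 the beta chain of I-E. Cd74 encodes the invariant chain, which escorts new class II molecules to the endosome, and H2-DMa encodes a chain of the H2-DM molecule, which exchanges the leftover piece of invariant chain for peptide. Ciita is the master transactivator of the class II genes. In epidermis, class II is borne chiefly by Langerhans cells, which make the lectin langerin (Cd207) and the adhesion molecule EpCAM, and which leave the skin for the draining lymph node after irritation. Itgax encodes CD11c, a dendritic cell integrin, and Cd86 a co-stimulatory ligand that dendritic cells raise as they mature.

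The study treated ear skin of mice with the blistering agent sulfur mustard, with or without a drug applied beforehand, and took biopsies of 8 mm at 24 h. Mustard, at 0.08 mg in methylene chloride, went on the right ear, and methylene chloride without mustard went on the left ear. The groups of this series were 21 left ears with methylene chloride, 5 right ears with mustard alone, and right ears with mustard after dimercaprol (6 ears, 6.25 mg, a dithiol chelator), indomethacin (6 ears, 1.34 mg, a cyclooxygenase inhibitor) or octylhomovanillamide (5 ears, labelled 0.6 mg and in the protocol 0.585 mg, a capsaicin analogue). Drugs were applied in ethanol 15 min before the mustard. No pretreatment is labelled for ears with mustard alone, so drug and ethanol cannot be told apart in comparisons of pretreated with mustard ears. A second, separately numbered set of animals without mustard or methylene chloride gave array A only: 5 untreated ears of 3 animals, called naive, 3 ears with ethanol, and 4, 4 and 5 ears with dimercaprol, indomethacin and octylhomovanillamide. The ethanol ears are the left ears of animals 507, 515 and 520. The right ears of these animals had dimercaprol, indomethacin and octylhomovanillamide, in that order, and are among the drug ears. Strain, sex and age are not given in the sources used here, and each ear was measured once.

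Signals below are array A intensities, as the authors deposited them, after each array was scaled to the same trimmed mean of 500. Keratinocyte genes defined the tissue, with a mean of 18168 for Krt14 and 15874 for Krt5 in methylene chloride ears. Mustard arrays were dimmer before scaling, with a trimmed mean of 66.3 to 137, against 111 to 221 in methylene chloride ears. The mustard ears of animals 5 and 37 also stood apart in RNA integrity. Their log2 ratios of the 3' to the 5' Gapdh control probe sets were 0.635 and 0.778, while all other arrays of the mustard series lay between -0.325 and 0.241. Results that changed without these 2 ears are given both ways. In whole skin, fewer cells of a type and less RNA per cell cannot be told apart.

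The class II alpha chain gene H2-Aa was lower in skin with mustard. Its main probe set, 1435290_x_at, read 1129, 1087, 1174, 1174 and 1555 in the 5 mustard ears. In the 21 methylene chloride ears the lowest was 1553, the median 2413 and the highest 5029. Only the highest mustard ear reached the lowest methylene chloride ear. H2-Aa fell by 1.04 ± 0.18 (SE) on the log2 scale, or 2.06-fold (adjusted p = 1.12e-05, limma, Benjamini-Hochberg over all probe sets). A second H2-Aa probe set, 1452431_s_at, fell by 1.43 ± 0.22 (adjusted p = 1.36e-06). Over all of array A, 42.8% of probe sets passed the same test and 23.4% passed it with a fall. Falls were thus 54.8% of the calls, against 97.5% where arrays were not rescaled, which moved the median of all probe sets to -0.60.

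H2-Ab1, the partner chain of H2-Aa, was also lower. Its brightest probe set, 1450648_s_at, read 777, 718, 635, 904 and 917 in mustard ears, and 883 at the lowest, 1396 at the median and 2314 at the highest in methylene chloride ears. The mustard ears lay at or under the low end of the methylene chloride ears, with 2 of 5 inside their range. H2-Ab1 fell by 0.87 ± 0.19 (adjusted p = 0.000224), or 1.82-fold. A further H2-Ab1 probe set, 1425477_x_at, read 283, 265, 169, 304 and 159.8 in mustard ears against 400.4 to 1084 in methylene chloride ears. The groups did not overlap there, and it fell by 1.42 ± 0.20 (adjusted p = 3.75e-07). Probe sets whose name ends in _x_at hold probes that can also match other transcripts.

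The invariant chain gene Cd74 followed the same direction. Mustard ears read 1351, 2132, 1369, 2289 and 2125, and methylene chloride ears 2265 at the lowest, 3247 at the median and 4008 at the highest. Of the mustard ears, only that of animal 36 lay inside the methylene chloride range. Cd74 fell by 0.79 ± 0.14 (adjusted p = 1.54e-05), or 1.73-fold.

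Cd207, which encodes langerin of the Birbeck granules, had a smaller difference. Mustard ears read 367, 347, 223, 352 and 454, against 318 at the lowest, 469 at the median and 729 at the highest in methylene chloride ears. All but the ear of animal 5 lay inside the methylene chloride range. Cd207 fell by 0.48 ± 0.13 (adjusted p = 0.00245). With the animal as a block, which uses only the 17 animals with both ears, the Cd207 difference was -0.27 (adjusted p = 0.231), while a Gapdh ratio covariate gave -0.35 (adjusted p = 0.0923).

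The other members did not pass the test in this comparison. H2-DMa read 273, 236, 253, 355 and 273 in mustard ears and 234 to 434 in methylene chloride ears, a difference of -0.23 ± 0.11 (adjusted p = 0.0961). Epcam, which keratinocytes of the hair follicle also express, read 2434, 3497, 1376, 2096 and 1901 against 1482 to 3262, a difference of -0.20 ± 0.14 (adjusted p = 0.241). Itgax went the other way, with 157, 272, 155, 164 and 292 against 110.4 to 219. The ears of animals 3 and 37 lay above all methylene chloride ears, and the difference was 0.29 ± 0.13 (adjusted p = 0.0546). Cd86 read 157, 101, 59, 152 and 155 against 59.4 to 177, a difference of 0.03 ± 0.17 (adjusted p = 0.907).

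Ciita was dim in every group, and its probe sets stayed under the filter on low signals. Its brighter probe set on array A, 1421210_at, read 39.5, 74.1, 31.5, 81.5 and 32.4 in mustard ears and 8.72 at the lowest, 73 at the median and 129.6 at the highest in methylene chloride ears. The groups overlapped, and the gene was not tested.

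Across the 9 genes measured on array A, 4 fell and none rose in mustard against methylene chloride ears, a share of calls near the 42.8% of all probe sets. The median difference was -0.48 against -0.005 over all probe sets. H2-Aa, H2-Ab1 and Cd74 kept their calls when the ears of animals 5 and 37 were left out, at -1.14, -0.84 and -0.73 (adjusted p = 0.00026, 0.00694 and 0.00152). The same 3 genes kept them with the animal as a block, at -0.81, -0.62 and -0.70 (adjusted p = 0.00184, 0.0483 and 0.00486).

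**Figure D1:**
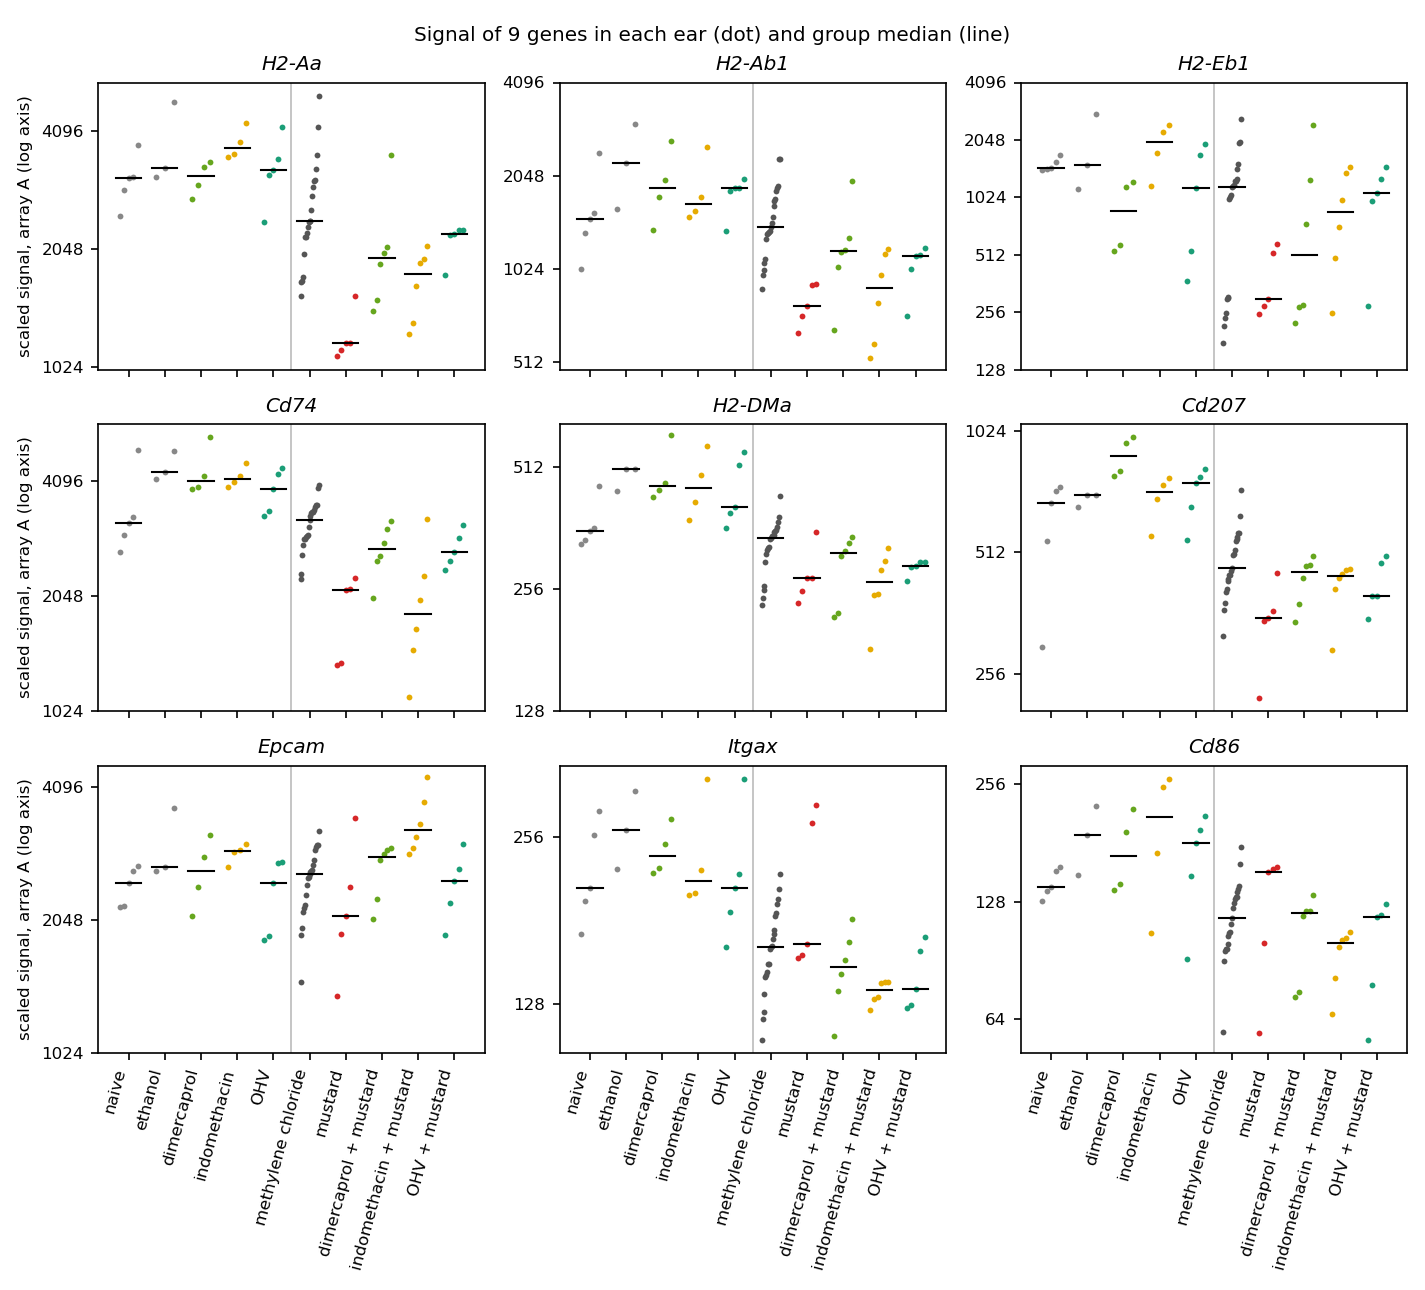
Signal of 9 genes in each ear on array A (vertical axis, log2 scale of the scaled signal) by treatment group; each dot is an ear, the short line is the group median, and the grey vertical line separates animals without mustard from the mustard series (SM, sulfur mustard; OHV, octylhomovanillamide). H2-Aa and Cd74 are lower in the 5 mustard ears than in nearly all methylene chloride ears, while H2-Eb1 spreads widely in most groups.

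Array B gave further probe sets for 3 of the genes, with 26% of its probe sets called. The H2-Aa probe set 1443783_x_at read 73, 72.6, 60.3, 71.2 and 58.8 in mustard ears and 83.8 to 258 in methylene chloride ears. The groups did not overlap, and it fell by 1.15 ± 0.28 (adjusted p = 0.00145). The brighter H2-Aa probe set of array B, 1438858_x_at, read 934, 635, 1393, 977 and 2329 against 587 to 5335, a difference of -0.90 ± 0.41 (adjusted p = 0.0985; -0.14 with the animal as a block). H2-DMa and Epcam did not pass on array B (0.60 ± 0.43 and -0.29 ± 0.24; adjusted p = 0.316 and 0.379).

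Ears of the same animal gave a comparison free of differences between animals. Mustard was always on the right ear, so side and treatment cannot be told apart in it. In the 4 mustard animals with both ears measured, H2-Aa was lower in the right, mustard ear in 4 of 4, by -1.03 to -0.58 on the log2 scale. H2-Ab1 was lower in 4 of 4 (-0.92 to -0.18) and Cd74 in 4 of 4 (-1.19 to -0.30). Cd207 was lower in 3 of 4 (-0.82 to 0.15), and Ciita, by its dim probe set 1421210_at, in 4 of 4 (-1.39 to -0.06). The dim Ciita set of array B, 1447075_at, went the other way in animals 1, 3 and 37. Their mustard ears read 62.2, 40.5 and 64.2, and their left ears 31.4, 12.7 and 11.1. In animal 36 the mustard ear read 25.1 and the left ear 27.7. Itgax was lower in 1 of 4 and Epcam in 2 of 4.

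H2-Eb1, the I-E beta chain gene, varied more between animals than with treatment. The 21 methylene chloride ears fell into 7 ears at 176 to 307 and 14 ears at 1009 to 2639, with none in between, a gap of 3.29-fold. The right ears of the same animals separated in the same way, though not all outside this gap. The mustard ear of animal 37, at 583, and the indomethacin and mustard ear of animal 22, at 717, lay inside it. In the 7 animals with a low left ear, the right ear read 249 to 301, whatever its treatment, and in the 10 animals with a high left ear it read 583 to 2455. The 17 animals with both ears thus separated without overlap in the right ear.

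Low animals were found in every treatment group of the mustard series. Animals 1, 3 and 36 were in the mustard group, 8 and 11 in the dimercaprol group, 18 in the indomethacin group and 33 in the octylhomovanillamide group. The mustard group read 301, 277, 522, 249 and 583 for H2-Eb1, with a difference from methylene chloride ears of -1.08 ± 0.52 (adjusted p = 0.0927). With the animal as a block it was -0.19 (adjusted p = 0.53), and within animals H2-Eb1 was lower in 3 of 4 mustard ears (-0.83 to 0.46). Of these 4 animals, 3 had a low left ear too. What sets the low and the high animals apart was not tested.

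**Figure D2:**
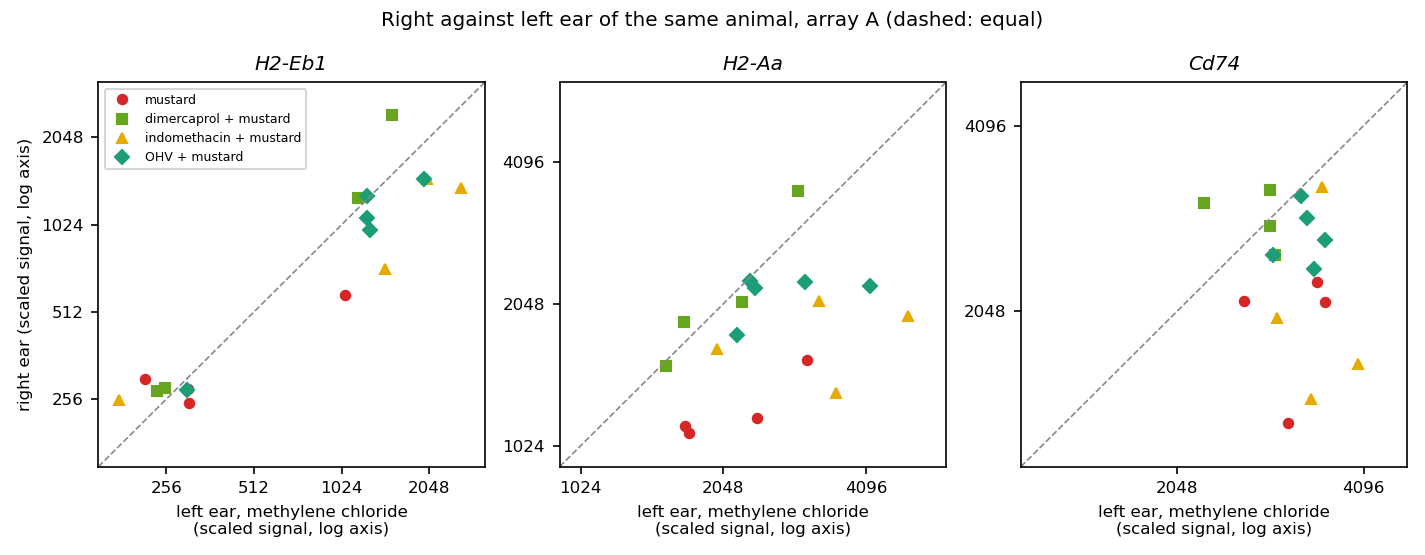
Right ear against left ear of the same animal for H2-Eb1, H2-Aa and Cd74 (both axes log2 scale, scaled signal of array A; colours are the right ear's treatment; OHV, octylhomovanillamide; the line marks equal values). H2-Eb1 forms separate clouds, with 7 animals low in both ears and 10 higher in both, and most H2-Aa and Cd74 points lie under the line.

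A related split was seen for H2-Aa, but only by 1 of its 4 sets. By 1438858_x_at of array B, the methylene chloride ears of the 7 low H2-Eb1 animals read 587 to 1354 for H2-Aa and the other 14 read 1923 to 5335. By the main H2-Aa probe set of array A the ranges overlapped, at 1553 to 2413 and 2191 to 5029. By 1452431_s_at they lay over each other, at 1269 to 2301 and 607 to 2323, and likewise by 1443783_x_at, at 112 to 236 and 83.8 to 258. In the right ears the array B ranges overlapped, at 635 to 1617 and 1487 to 3761. Ear by ear within the 14 high ears, H2-Eb1 correlated with the main H2-Aa probe set of array A (r = 0.826, permutation p = 0.00055, adjusted 0.0044; rho = 0.688, permutation p = 0.00777, adjusted 0.0622). Without the 2 ears farthest from the median, r was 0.705. With the other 3 H2-Aa sets r was 0.046 (1452431_s_at), -0.061 (1438858_x_at) and -0.041 (1443783_x_at) in the same ears (permutation p = 0.885, 0.834 and 0.892), so a relation was seen by 1 of 4 sets. Within the 7 low ears r was between -0.122 and 0.315 over the 4 sets (lowest exact permutation p = 0.484). These are 8 relations, adjusted together.

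**Figure D3:**
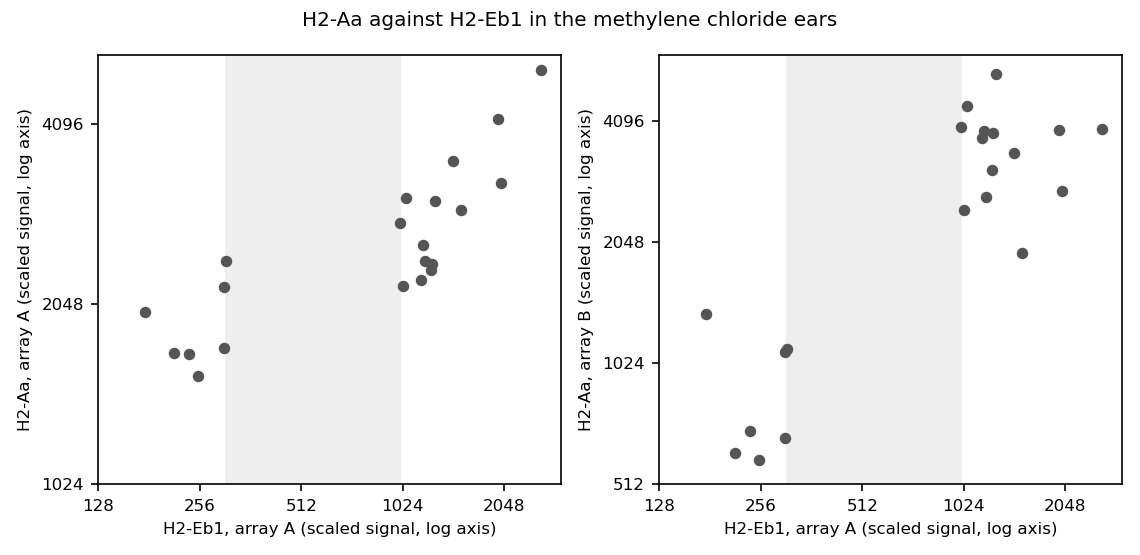
H2-Eb1 signal on array A (horizontal axis) against H2-Aa signal by the main probe set of array A and by 1438858_x_at of array B (vertical axes) in the 21 methylene chloride ears, all axes on a log2 scale; the grey band is the range of H2-Eb1 in which no ear lies. The array B set separates the same 7 ears from the other 14, and the array A set does not.

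Stretches of 120 bases before the starts of H2-Aa and H2-Eb1 are shown because H2-Aa had the largest called fall by its main set among the 9 genes and H2-Eb1 the split between animals. They come from RefSeq on GRCm38.p6, whose table held 6 of the 10 genes, with 7 entries. H2-Aa lies at chr17:34287824-34287943 on the minus strand and H2-Eb1 at chr17:34305747-34305866 on the plus strand. Both are written 5′ to 3′, and capitals mark matches to the Y box letters CTGATTGG and to the letters TGACGTCA of a cyclic AMP response element, both known elements of class II promoters.
H2-Aa: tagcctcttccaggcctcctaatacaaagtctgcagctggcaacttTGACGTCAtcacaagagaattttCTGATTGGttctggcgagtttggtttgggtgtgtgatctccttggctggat
H2-Eb1: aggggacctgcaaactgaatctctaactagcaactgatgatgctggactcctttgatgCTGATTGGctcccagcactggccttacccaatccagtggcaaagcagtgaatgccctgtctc
CTGATTGG, searched on both strands, lies 51 to 44 bases before the start in H2-Aa and 62 to 55 bases before it in H2-Eb1. It is held by 4.1% of 32851 promoters of 300 bases. TGACGTCA lies 74 to 67 bases before the start of H2-Aa, was not found in the H2-Eb1 stretch, and is held by 1.79% of promoters. Neither was found in the entries of Cd207, Epcam, H2-DMa and Itgax. H2-Ab1, Cd74, Ciita and Cd86 had no entry.

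With dimercaprol before mustard, 2 of the 5 class II members, H2-Aa and Cd74, were higher than with mustard alone by their main probe sets. H2-Aa read 1417 at the lowest, 1937 at the median and 3554 at the highest in the 6 dimercaprol ears, against 1087 to 1555 in mustard ears. The difference was 0.69 ± 0.22 (adjusted p = 0.0170), and 1.10 ± 0.27 by 1452431_s_at (adjusted p = 0.00205). Cd74 read 2023 at the lowest, 2714 at the median and 3219.6 at the highest against 1351 to 2289, a difference of 0.57 ± 0.17 (adjusted p = 0.0119). Both groups overlapped in H2-Aa and in Cd74.

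By its brightest probe set H2-Ab1 read 651 to 1974 after dimercaprol, a difference of 0.55 ± 0.23 that did not pass (adjusted p = 0.0669). Its other sets rose by 0.75 (adjusted p = 0.00545) and 1.18 ± 0.25 (adjusted p = 0.000452). Itgax, the dendritic cell integrin gene, fell by 0.40 ± 0.15 (adjusted p = 0.0449), with 112 to 183 in dimercaprol ears, but without rescaling of the arrays it differed by 0.43. H2-Eb1 and Cd207 differed by 0.67 ± 0.64 and 0.33 ± 0.16 and did not pass (adjusted p = 0.459 and 0.113). In all, 2 of the 9 genes rose and 1 fell, where 26.8% of array A probe sets were called. The median of the 9 was 0.33. With the animal as a block no member was called, at 0.88 for H2-Aa (adjusted p = 0.0568), 0.78 for Cd74 (0.0798) and -0.42 for Itgax (0.365). Without the mustard ears of animals 5 and 37 only H2-Aa was called, at 0.80 (adjusted p = 0.0479). H2-Aa was not called without dimercaprol animal 9, Cd74 not without mustard animal 1 or 5, and Itgax not without any of dimercaprol animals 8, 9, 10 and 12 or mustard animals 3 and 37.

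After octylhomovanillamide the same 3 genes passed the test against mustard. H2-Aa read 2282, 2213, 2235, 2288 and 1754, all above the mustard ears, and rose by 0.81 ± 0.23 (adjusted p = 0.0133). Cd74 read 2902, 2531, 2396, 2669 and 3151, again without overlap, and rose by 0.59 ± 0.18 (adjusted p = 0.0206). Itgax read 159, 169, 127, 126 and 136, overlapping the mustard ears, and fell by 0.45 ± 0.16 (adjusted p = 0.0473), but without rescaling it differed by 0.23.

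H2-Ab1 read 1196, 1024, 722, 1124 and 1131 after octylhomovanillamide by its brightest set, a difference of 0.38 that did not pass (adjusted p = 0.279). Its other sets rose by 0.74 (adjusted p = 0.0142) and 1.14 (adjusted p = 0.00297), both without overlap. H2-Eb1 read 979, 1082, 1477, 1283 and 276, a difference of 1.26 ± 0.66 (adjusted p = 0.189), where the last ear belongs to a low animal. On array A 17.1% of probe sets were called, and the median of the 9 genes was 0.30. On array B, where 9.54% were called, the H2-Aa set 1443783_x_at read 114, 143, 94.5, 179 and 182, above all mustard ears, a difference of 0.90 (adjusted p = 0.0947). No member was called with the animal as a block, at 0.46 for H2-Aa (adjusted p = 0.317), 0.43 for Cd74 (0.347) and -0.63 for Itgax (0.216). None was called without the mustard ears of animals 5 and 37, at 0.91, 0.53 and -0.39 (adjusted p = 0.0818, 0.168 and 0.245). Cd74 was not called without mustard animal 1 or 5 or octylhomovanillamide animal 33, nor Itgax without mustard animal 3 or 37 or octylhomovanillamide animal 29, 30 or 33.

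Pretreatment with indomethacin did not move the class II genes past the test against mustard. H2-Aa read 1243 at the lowest, 1765 at the median and 2075 at the highest, a difference of 0.44 (adjusted p = 0.264). H2-Ab1 by its brightest set, Cd74 and Cd207 differed by 0.08, 0.05 and 0.28 (adjusted p = 0.877, 0.913 and 0.321). The other H2-Ab1 sets differed by 0.20 (1451721_a_at) and 0.80 ± 0.25 (1425477_x_at, adjusted p = 0.0726), and neither passed. By 1452431_s_at H2-Aa differed by 0.65 ± 0.27 (adjusted p = 0.172). H2-Eb1 differed by 1.02 ± 0.64 (adjusted p = 0.378) and H2-DMa by -0.07 (adjusted p = 0.804). Epcam alone rose, by 0.65 ± 0.17 (adjusted p = 0.0412), with 2888 at the lowest, 3274 at the median and 4333 at the highest, where 1.8% of probe sets were called. Only the mustard ear of animal 3, at 3497, lay inside that range.

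By its array B set Epcam read 3315 to 9584 after indomethacin, above all mustard ears, and rose by 0.99 ± 0.29 (adjusted p = 0.0442; 3.16% of array B called). With the animal as a block the Epcam difference was 0.04 on array A (adjusted p = 0.988) and 0.40 on array B (adjusted p = 0.82). Without the mustard ears of animals 5 and 37 it was 0.37 on array A (adjusted p = 0.674), and the array A call was lost on leaving out any of 7 of the 11 ears (indomethacin animals 16, 17, 18, 19 and 21, mustard animals 5 and 37). The array B call was lost on leaving out any of 9 of the 11 ears. It was also lost in 7 of 12 settings, among them without the mustard ears of animals 5 and 37, quantile normalization and eBayes without trend. Itgax read 125 to 140.4 after indomethacin, under all mustard ears, a difference of -0.52 ± 0.15 that did not pass (adjusted p = 0.0586).

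Each pretreated group was also set against methylene chloride ears. These comparisons share their control ears with each other and with the mustard comparison. After indomethacin, H2-Aa fell by 0.60 ± 0.17 (adjusted p = 0.00458), H2-Ab1 by 0.78 ± 0.17 (adjusted p = 0.000388) and Cd74 by 0.74 ± 0.13 (adjusted p = 1.62e-05). Cd74 read 1115 at the lowest, 1841 at the median and 3253 at the highest in these ears. H2-DMa fell by 0.31 ± 0.11 (adjusted p = 0.0197) and Epcam rose by 0.44 ± 0.13 (adjusted p = 0.00605), so 5 of 9 genes were called where 35.9% of probe sets were. With the animal as a block H2-Aa, H2-Ab1 and Cd74 kept their calls, while H2-DMa (-0.27, adjusted p = 0.142) and Epcam (0.26, adjusted p = 0.304) did not. H2-DMa also lost its call without indomethacin animal 16. On array B, with 12.7% called, the H2-Aa set 1443783_x_at fell by 0.90 ± 0.26 (adjusted p = 0.0120). Epcam rose there by 0.70 ± 0.22 (adjusted p = 0.0261), but not with the animal as a block (0.47, adjusted p = 0.341) or without animal 16.

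No member was called against methylene chloride after dimercaprol, where 3.05% of probe sets were called, or after octylhomovanillamide, where 2.76% were. The H2-Aa differences were -0.35 (95% interval -0.69 to -0.005, adjusted p = 0.297) and -0.23 (95% interval -0.60 to 0.14, adjusted p = 0.624). For Cd74 they were -0.22 ± 0.13 (95% interval -0.49 to 0.04, adjusted p = 0.406) and -0.20 (adjusted p = 0.542). For H2-Ab1 by its brightest set they were -0.32 (95% interval -0.67 to 0.04, adjusted p = 0.372) and -0.49 (95% interval -0.86 to -0.11, adjusted p = 0.176). Its other sets differed by -0.14 and -0.23 after dimercaprol, and by -0.15 and -0.28 after octylhomovanillamide. These intervals are not adjusted for the number of probe sets. Of the 9 genes, 8 lay below methylene chloride after each drug, with a median of -0.18 in both. Within animals, H2-Aa and Cd74 were lower in the treated ear in 5 of 5 octylhomovanillamide animals (-0.90 to -0.03 and -0.50 to -0.04). They were lower in 4 of 4 indomethacin animals (-1.41 to -0.27 and -1.24 to -0.11). In dimercaprol animals H2-Aa was lower in 2 of 4 (-0.12 to 0.27) and Cd74 in 2 of 4 (-0.22 to 0.43).

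The 3 pretreated groups were compared with each other, as 3 pairs of treatments whose drug doses and applied volumes differ. Cd74 was higher after dimercaprol than after indomethacin by 0.52 ± 0.16 (adjusted p = 0.0337), the only member called, where 10.5% of probe sets were. It was 0.86 with the animal as a block (adjusted p = 0.085), and the call was lost on leaving out any of 6 of the 12 ears (dimercaprol animals 8, 9 and 11, indomethacin animals 16, 19 and 22). Between octylhomovanillamide and indomethacin Cd74 differed by 0.54 ± 0.17 and did not pass (adjusted p = 0.0737; 2.07% called). Between dimercaprol and octylhomovanillamide limma called 0% of probe sets, with 332 at an unadjusted p under 0.05. There H2-Aa differed by -0.12 (95% interval -0.57 to 0.33) and Cd74 by -0.02.

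**Figure D4:**
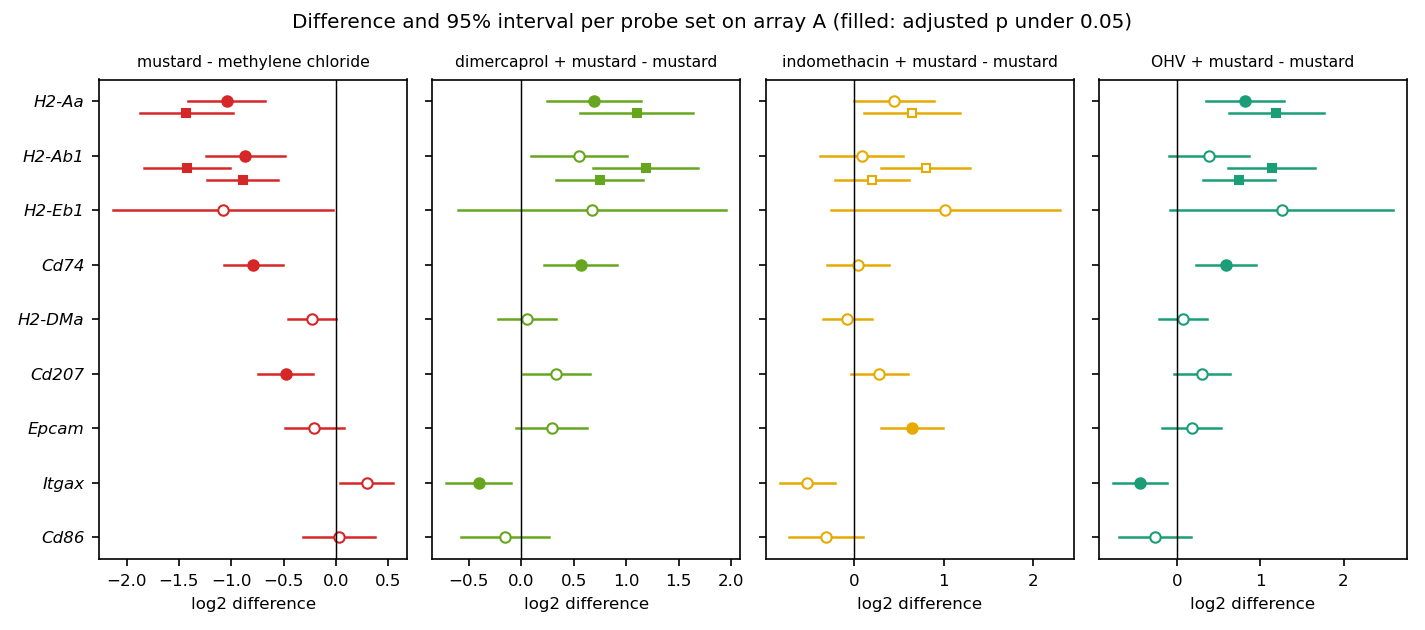
Log2 differences on array A with 95% intervals for the probe sets of the 9 genes in 4 comparisons (horizontal axis, log2 scale; circles are each gene's brightest probe set, squares its other kept sets, filled where the adjusted p was under 0.05; the axes differ between panels; OHV, octylhomovanillamide). H2-Aa, H2-Ab1, Cd74 and Cd207 lie left of 0 in mustard against methylene chloride, and H2-Aa and Cd74 lie right of 0 after dimercaprol and octylhomovanillamide.

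In animals without mustard the members showed no called difference. Naive ears read 3766, 2474, 3124, 2897 and 3103 for H2-Aa and 4932, 2672, 3292, 2964 and 3186 for Cd74. Ethanol ears read 3117, 4843 and 3284 for H2-Aa and 4152, 4909 and 4324 for Cd74. Against ethanol, dimercaprol, indomethacin and octylhomovanillamide alone each had 0% of probe sets called by limma, with 773, 1117 and 996 at an unadjusted p under 0.05. The medians of the 9 genes were -0.12, -0.03 and -0.21. Ethanol against naive had 0% called, with 501 at an unadjusted p under 0.05. There all 9 genes lay higher with ethanol, with a median of 0.31 against -0.007 over all probe sets.

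The lowest H2-Eb1 values of these animals were 373 and 535 after octylhomovanillamide and 534 and 574 after dimercaprol. These lie inside the gap of the methylene chloride ears, while naive ears read 1422 to 1708. H2-Eb1 differed from ethanol by -1.04 ± 0.46 for dimercaprol (adjusted p = 0.986). Cd207 read 792, 814, 954 and 986 after dimercaprol and 709.8, 710.1 and 661 after ethanol, a difference of 0.34 ± 0.18 (adjusted p = 0.986). The groups did not overlap for Cd207.

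Methylene chloride ears against naive ears had 21.5% of probe sets called but no member. All but 1 of the 9 genes lay lower, with a median of -0.26 against -0.07 over all probe sets. The differences were -0.92 ± 0.60 for H2-Eb1 (adjusted p = 0.276), -0.33 ± 0.21 for H2-Aa, -0.41 ± 0.16 for Itgax (adjusted p = 0.0583) and -0.30 ± 0.16 for Cd207 (adjusted p = 0.170). Itgax was called without methylene chloride animal 28 or 37, and Cd207 without naive animal 502. These groups come from separately numbered sets of animals, so set and solvent cannot be told apart.

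Of 15 other measured genes for class II presentation and its control, 4 rose and 2 fell in mustard ears, with a median of -0.01, where 42.8% of probe sets were called. Creb1, a transcription factor that binds cyclic AMP response elements, rose by 0.70 ± 0.16 (adjusted p = 0.000332). The lysosomal genes Ctsd and Ifi30 rose by 0.34 ± 0.09 and 0.32 ± 0.09 (adjusted p = 0.00161 and 0.00252), and Ctsl by 0.29. Sppl2a, whose protease clears the last stub of the invariant chain, fell by 0.46 ± 0.11 (adjusted p = 0.00105). Ctss, the cathepsin that trims the invariant chain, fell by 0.31 ± 0.13 (adjusted p = 0.0479).

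Of 13 tested genes of Langerhans cell origin, retention and migration, none was called with a rise and 3 fell, a share near the 23.4% of all probe sets that fell. Il34, the keratinocyte cytokine on which Langerhans cells depend, fell by 0.98 ± 0.16 (adjusted p = 3.28e-06). Cdh1, the E-cadherin that ties Langerhans cells to keratinocytes, fell by 0.41 ± 0.12 (adjusted p = 0.0043). Id2, a transcription regulator needed by Langerhans cells, fell by 0.35 ± 0.10 (adjusted p = 0.0033). Ccl20, Cxcr4 and Runx3 of the same list were under the filter on low signals and were not tested. They averaged 24, 59 and 24.9 in methylene chloride ears and 181, 67.2 and 30.6 in mustard ears.

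Of 11 co-stimulation and maturation genes, 4 rose and 1 fell, again near the 42.8% called over all probe sets. The adhesion ligand gene Icam1 rose by 2.00 ± 0.18 (adjusted p = 3.62e-11), and the co-stimulatory ligand genes Cd80 by 1.04 ± 0.22 (adjusted p = 0.000164) and Icosl by 1.12 ± 0.28 (adjusted p = 0.00108). The chemokine gene Ccl17 fell by 0.51 (adjusted p = 0.0463). Of 18 class I and interferon gamma genes, 4 rose and 2 fell, a smaller share than that. They included the chaperone gene Calr (0.50 ± 0.08, adjusted p = 1.32e-06), H2-K1 of class I (0.40, adjusted p = 0.0352) and the peptide editor gene Tapbp, which fell by 0.34 (adjusted p = 0.0101).

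Markers of other cells were counted in the same comparison, where 42.8% of array A probe sets were called. Of all 15953 probe sets, 3085 were called with a rise and 3740 with a fall, and the counts below stand beside these. In mustard against methylene chloride ears, 4 of 10 pan-leukocyte genes rose and none fell, and 3 of 11 macrophage genes rose, among them Cd14 by 1.48 ± 0.20 and Cd68 by 1.16 ± 0.15. Macrophage genes did not share a direction. The means of Adgre1, C1qa, Mertk and Ms4a7 were lower with mustard, and those of C1qb, Cd163, Lyz2 and Mrc1 higher. The summed pan-leukocyte signal was 2869 to 5907 in mustard and 2179 to 3373 in methylene chloride ears, and the macrophage sum 2854 to 5788 and 2205 to 6034. Of 12 dendritic cell genes 1 rose, Cd24a, and the dendritic sum was 6446 to 12903 against 5142 to 7454. Without Cd24a, the sum of the other 11 was 1590.11 to 2184.7 in mustard and 1586.36 to 2406.27 in methylene chloride ears. Among 4 T cell genes 2 fell, Cd3g by 0.96 ± 0.25 and Cd247 by 0.50 ± 0.16, with a sum of 1410.03 to 2037 against 1277 to 2486. Of 4 B cell genes 1 rose, Cd79a, and 0 of 6 mast cell genes passed. Of 9 keratinocyte genes chosen because they share cells with Epcam, 2 rose and 4 fell, with Krt17 at 2.00 and Krt15 at -1.26. Cd4, Cd8a, Itgam, Ccr7, Cd40 and Hdc were among the markers under the filter. Of these, Hdc of the mast cell list averaged 7.79 in methylene chloride and 288 in mustard ears, and was not tested. The part of these cells in the class II differences was not tested.

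After dimercaprol, against mustard, 2 of 15 class II control genes rose and 2 fell, a share near the 26.8% called over all probe sets. Sppl2a rose by 0.72 ± 0.14 (adjusted p = 0.000188) and Ctss by 0.67 ± 0.16 (adjusted p = 0.0015), while Creb1 fell by 0.61 and Ctsd by 0.38. Among Langerhans genes Il34 rose by 0.88 ± 0.19 (adjusted p = 0.000742) and Id2 by 0.33 (adjusted p = 0.0332). Beside these, 3 of 11 macrophage and 2 of 10 pan-leukocyte genes fell. After octylhomovanillamide, where 17.1% of probe sets were called, 2 of 15 class II control genes rose and 2 fell, and 1 of 13 Langerhans genes rose. Beside these, 2 of 11 macrophage genes rose and 2 fell, and 1 of 10 pan-leukocyte genes fell. After indomethacin no gene of the class II control, Langerhans, co-stimulation or leukocyte lists was called.

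Across the 21 methylene chloride ears, H2-Aa was set against the other members. In this family 10 relations were computed, that of H2-Eb1 included, for which no pooled value is given. Of the others, H2-Aa with H2-DMa (r = 0.644, permutation p = 0.00174, adjusted 0.00863; rho = 0.649, adjusted 0.00895) and with H2-Ab1 (r = 0.618, permutation p = 0.00259, adjusted 0.00863; rho = 0.56, adjusted 0.0329) passed. Without the 2 ears farthest from the median, r was 0.594 and 0.473. Cd74 with H2-Aa (r = 0.372, permutation adjusted p = 0.139), Cd207 with H2-Aa (r = 0.168, permutation adjusted p = 0.519) and Cd207 with Epcam (r = 0.394, permutation adjusted p = 0.139) did not. The ears share array brightness and the amount of skin in the biopsy, whose part was not tested. These relations also pool the 7 low and the 14 high H2-Eb1 ears. The main H2-Aa set read 1553 to 2413 and 2191 to 5029 in them, and the part of that split was not tested.

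As a description over 9602 genes and these 21 ears, the log2 values of H2-Aa, H2-Ab1, H2-Eb1 and Cd74 were averaged. The genes most like this mean were Kctd10 (r = 0.739), Smox, the spermine oxidase gene (r = 0.701), and Prcp (r = 0.676). Tapbp of the class I pathway was among the first 10 (r = 0.644). H2-Eb1 weighed most in the mean. Its log2 SD over the left ears of 17 animals was 1.32, against 0.48 for H2-Aa, 0.41 for H2-Ab1 and 0.19 for Cd74. Smox and Kctd10 were also the genes nearest to H2-Eb1 alone. The part of the H2-Eb1 split in this list was not tested. Nearest to Cd207 were St14, which encodes the epidermal protease matriptase (r = 0.859), and Mark2 (r = 0.698).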

How the data were processed

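RNA (10 µg) from ear skin was hybridized to Affymetrix mouse arrays A (64 ears) and B (43 ears). MAS5 signals (no version given) were made by the authors, per the labels. They were deposited as intensity values, linear and not log transformed. No scaling between arrays was visible, with 2% trimmed means of 66.3 to 267 on array A and 18.7 to 51.7 on array B. Each array was therefore scaled to a 2% trimmed mean of 500, which removes any shift shared by all probe sets. Genes were named from the platform annotation, using probe sets with 1 symbol.

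Scaled signals were raised by 16 and log2 transformed, and probe sets with a mean of at least 100 were kept (15953 of 22690 on A, 17287 of 22575 on B). Differences understate the change of dim genes. Models were fitted with limma 3.58.1 (lmFit, eBayes with trend) in R 4.3.3 and the data.table package (1.17.8). Adjusted p-values are Benjamini-Hochberg values over all probe sets kept on an array, with a threshold of 0.05. All groups of the mustard series entered 1 fit. Animals of the set without mustard entered another, in which ears of a naive animal were averaged. That fit did not pair the ethanol ears with the drug ears of the same animals. A fit over all ears of array A gave methylene chloride against naive. The kept probe set of highest mean stands for a gene, and other sets are named. The fits were tested on simulated data. Correlation p-values are from 100000 permutations, or exact under 10 ears.

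Left and right ears with the same number are of the same animal, so the numbers pair the samples. Over 17 pairs, deviations from group means correlated by 0.164 on average on array A (-0.0943 to 0.439; -0.00609 for other pairs) and by 0.0679 on array B (-0.0778 to 0.151; -0.00257 for other pairs). P-values measure the spread between ears, and the number of arrays limits the precision. Alternatives were other scalings, pseudocounts and filters, an animal block, covariates, and leaving out ears. The 10 genes, the lists and the rule for named genes were chosen with earlier results of these data known. The named genes are the 10 genes, at most 4 genes per list, ranked by adjusted p, and the genes most correlated in methylene chloride ears. Ctsl, Ctss, Ccl17, H2-K1, Ccl20, Cxcr4, Runx3 and Hdc lie outside that rule. They, the macrophage genes given by direction only and the pattern of H2-Eb1 were described after their values were seen.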

Additional observations from a re-analysis of the deposited data

Results flagged for a closer look

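In 6 of 75 groups of 4 to 10 ears, the highest or the lowest ear stood further from the rest than Dixon's 95% value allows. Chance alone flags about 1 group in 20. For H2-Aa these were the mustard ear of animal 37, at 1555, above the others, the dimercaprol and mustard ear of animal 9, at 3554, above the others, and the octylhomovanillamide and mustard ear of animal 33, at 1754, below the others. For H2-Ab1 it was the ear of animal 519 with octylhomovanillamide alone, at 1357, below the others. The ear of animal 16, with indomethacin and mustard, was low for Cd207, at 294, and high for Epcam on array B, at 9584. The mustard ear of animal 37 is also the one with the highest Gapdh 3' to 5' ratio among the mustard ears, and animal 33 had low H2-Eb1 in both ears.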

How the results depend on the processing

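Mustard against methylene chloride had 4 of 9 genes called, 4 to 6 on leaving out single ears and 8 without rescaling of the arrays. H2-Aa, H2-Ab1 and Cd74 were called in all 13 settings with a test and on leaving out any single ear, Cd207 not with the animal as a replicate block or the Gapdh ratio as covariate. For dimercaprol against mustard (3 called) the count was 0 with the Gapdh ratio, the animal block or array brightness, 1 without the mustard ears of animals 5 and 37, 8 without rescaling, and 1 to 4 on leaving out single ears. For octylhomovanillamide against mustard (3 called) it was 0 with the Gapdh ratio, the animal block, brightness or without those ears, 7 without rescaling, and 1 to 3 on leaving out single ears. For indomethacin against mustard (1 called) it was 0 with the Gapdh ratio, the animal as a fixed or random block, brightness, keratin level, no filter or without those ears, 5 without rescaling, and 0 to 2 on leaving out single ears. Indomethacin against methylene chloride (5 called) had 3 with the fixed block and 3 without rescaling. Methylene chloride against naive (0 called by limma) had 0 to 1 on leaving out single ears. Without rescaling the median of all probe sets moved to 0.86, 0.71 and 0.52 for dimercaprol, octylhomovanillamide and indomethacin against mustard, and 0.439%, 0.301% and 0.0168% of calls were falls, against 41.9%, 38.7% and 36.2%. There Cd86 turned to -0.51 in mustard against methylene chloride and to 0.62 in dimercaprol against mustard, and Itgax to 0.43 and 0.23 after dimercaprol and octylhomovanillamide. The animal block changed no call other than those named here or beside the results. It uses only the 17 animals with both ears. The cause of these changes was not tested. Signals near the filter, as for Cd86 and Itgax, have little room above background.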
